A study of Mus musculus with 6 samples.

Results

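The cullin-RING and F-box ubiquitin ligase genes were taken as every gene of the deposited table whose symbol begins with Cul, Fbxw, Fbxl, Fbxo, Klhl, Kctd or Cops followed by a digit, together with Rbx1, Skp1, Skp2, Ddb1 and Cand1. This gave 129 of 13931 genes, of which 108 had an average above 1 on the log2 CPM scale (CPM, read counts scaled to a common library total), the expression cut-off of the study. They comprised 8 cullins, the 5 individually named genes, 9 subunits of the COP9 signalosome, 8 Fbxw, 19 Fbxl, 30 Fbxo, 32 Klhl and 18 Kctd genes, and a single entry, Fbxl12os, is an RNA transcribed opposite to an F-box gene. RNA was measured in whole lenses of newborn mice at postnatal day 0 (P0), with 3 Control and 3 Celf1cKO libraries, each from pooled lenses. Celf1cKO mice carried a germline null allele (Celf1lacZKI), an allele with a loxP-flanked exon (Celf1flox) and Pax6GFPCre, a Cre transgene active from the lens placode onward and also in the pancreatic lineage, on a mixed C57BL/6J and FVB background. The controls were described as Celf1lacZKI/+ in the sample labels and as Celf1flox animals without Cre in the methods, so whether the controls had already lost 1 Celf1 copy is not settled here. Celf1 encodes an RNA-binding protein that controls the decay, splicing and translation of its target transcripts.

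Cullin-RING ligases attach ubiquitin to chosen proteins. A cullin is the scaffold, with the RING protein Rbx1 or Rnf7 at its C-terminal end, where the ubiquitin-loaded enzyme docks, and a linker with an interchangeable substrate receptor at its N-terminal end. Skp1 links F-box proteins to Cul1, Ddb1 links WD-repeat receptors to Cul4a and Cul4b, and elongins serve Cul2 and Cul5. BTB proteins, among them the Kelch-like (Klhl) family and several Kctd proteins, bind Cul3 directly. The small modifier Nedd8 switches the cullin on, the COP9 signalosome removes it, and Cand1 helps empty scaffolds exchange their receptors. In the lens, epithelial cells leave the cell cycle, lose their organelles and fill with crystallins as they become fiber cells. The cell cycle inhibitors p21 and p27 are among the substrates of these ligases.

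The recovered depth was 40694454 to 44387151 gene-assigned reads per library. Celf1 itself, in order of library number, was at 9.95, 9.94 and 9.34 in the controls against 8.93, 7.66 and 7.83 in the mutants, on the log2 CPM scale. The groups did not overlap, and Celf1cKO library 1 lay nearest to the controls. The log2 fold-change, Celf1cKO minus Control, was -1.60 with an adjusted p of 0.0269 by limma. The summed level of 9 lens fiber cell markers was 90166 to 106980 CPM in Control and 56987 to 67236 CPM in Celf1cKO libraries, that of 7 lens epithelium markers 636 to 683 against 196 to 535 CPM, that of 6 vessel markers 128 to 163 against 26.3 to 135 CPM and that of 4 fibroblast markers 79.3 to 110 against 18.0 to 63.1 CPM. The macrophage and pigment epithelium sums overlapped between the groups and reached at most 26.9 CPM in any library. Blood, represented by Alas2 alone of 6 markers, also overlapped, at 0.431 to 1.35 CPM in Control and 0.0412 to 0.489 CPM in Celf1cKO libraries. None of the 5 cornea and skin markers was in the table, and Pdgfra counted in both the epithelium and the fibroblast sum. Skeletal muscle was represented by Ttn alone of 7 markers, at 0.431 to 0.574 CPM in Control and 3.61 to 12.1 CPM in Celf1cKO libraries. The fiber, epithelium, fibroblast and Ttn levels did not overlap between the groups, the vessel levels did, and their part in the results below was not tested. In whole-lens RNA, fewer cells of a type and less RNA per cell cannot be told apart.

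Of the 129 genes, 8 were called, that is, had an adjusted p under 0.05, an absolute log2 fold-change above 0.58 and an average above 1 log2 CPM. Of these, 5 were elevated in Celf1cKO lenses, namely Rbx1, Fbxl17, Fbxo38, Fbxw9 and Klhl13, and 3 were reduced, namely Klhl32, Fbxw4 and Klhl25. The share called was 6.2% against 7.39% of all 13931 genes, with 4.77% of all genes elevated and 2.63% reduced, so the number of calls was near the background and is not a feature of these genes. An adjusted p under 0.05 alone was reached by 13 of them, 10.08% against 11.9% of all genes, and an unadjusted p under 0.05 by 38, 29.46% against 29.9% of all genes, so both shares were again near the background. Of these 38, 29 were higher in Celf1cKO, 22.48% of the ligase genes against 16.3% of all genes, and 9 were lower, 6.98% against 13.7%. The median log2 fold-change over the 129 genes was 0.12 against -0.04 over all genes, and 62.96% of the 108 expressed ligase genes had a log2 fold-change above 0 against 50.38% of the 10640 expressed genes. The values of the Celf1cKO libraries lay entirely above those of the controls for 36 genes, 27.91% against 19.5% of all genes, and entirely below them for 11, 8.53% against 17.0%. These counts and medians are descriptions and were not tested as a set.

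**Figure D1:**
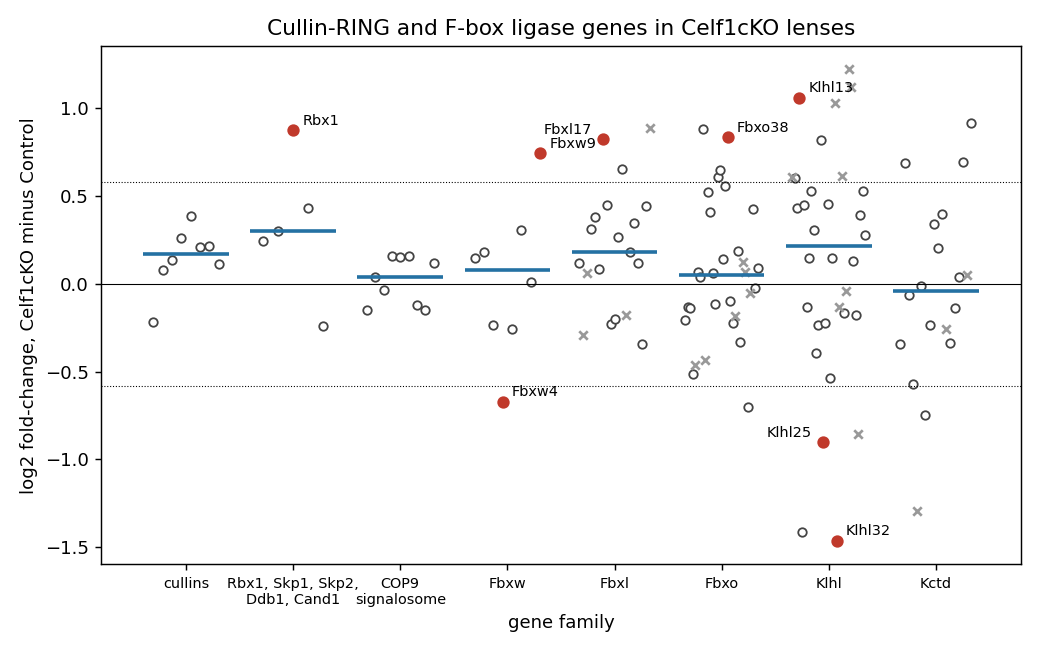
Log2 fold-change (Celf1cKO minus Control, vertical axis) of each of the 129 genes by family (horizontal axis). Filled red circles are the 8 called genes, open circles the other genes with an average above 1 log2 CPM and grey crosses genes at or below it, blue bars are family medians and dotted lines mark 0.58 in either direction. Most genes lie within the dotted lines, and the medians run from -0.04 in Kctd to 0.30 in the group of Rbx1, Skp1, Skp2, Ddb1 and Cand1.

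The labels do not pair the libraries, but same-numbered ones deviated together from their group means, so the library number was treated as a pairing. This pairing was taken from the same values that the blocked fit then tested, so the calls gained with it are not independent of that choice. Blocking on this number called 14 of the ligase genes, 10.85% against 9.18% of all genes, 10 of them elevated and 4 reduced. All 8 genes called without the block were among them, and Fbxo25, Fbxo33, Kctd9, Klhl11, Klhl24 and Kctd15 were added. With libraries scaled by their total recovered reads, which moved the median of the expressed genes from 0.0041 to 0.23, 24 genes were called, 23 elevated and 1 reduced, 18.6% against 13.4% of all genes. Relative to that shift Rbx1 stood at 0.87 and Klhl32 at -1.47, close to their values with the deposited scaling. Without a variance trend in the fit, 2 were called, Rbx1 and Fbxl17, 1.55% against 3.02% of all genes, and the calls of Fbxo38, Fbxw4, Fbxw9, Klhl13, Klhl25 and Klhl32 were lost. Leaving out 1 library gave 4, 0 and 2 calls without Control library 1, 2 or 3 and 16, 3 and 0 without Celf1cKO library 1, 2 or 3. Of all 13931 genes, the sets without Control library 1, 2 or 3 called 596, 1 and 438. Those without Celf1cKO library 1, 2 or 3 called 1916, 436 and 1. Where 0 of the ligase genes were called by limma, 1 gene of the whole table was, and 35 ligase genes without Control library 2 and 31 without Celf1cKO library 3 still had an unadjusted p under 0.05. Rbx1 and Fbxl17 were called in 4 of these 6 reduced sets, Fbxo38 in 2, Fbxw9, Klhl13, Klhl32 and Klhl25 in 1 each, and Fbxw4 in 0.

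**Figure D2:**
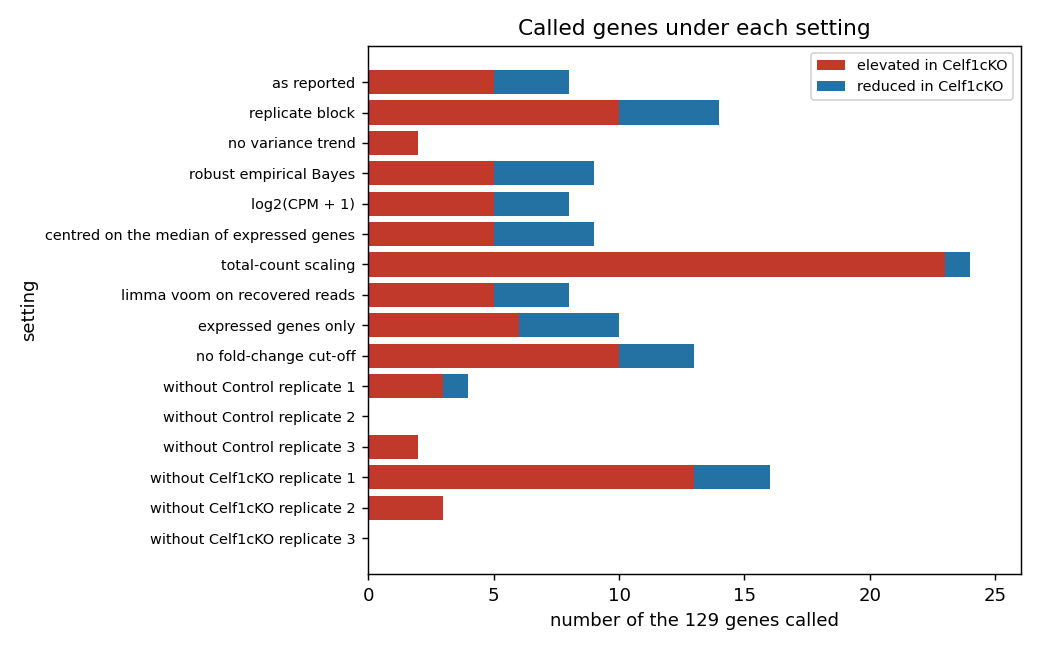
Number of the 129 genes called (horizontal axis) under each setting of the analysis (vertical axis), split into genes elevated (red) and reduced (blue) in Celf1cKO. The count was 8 as reported, 14 with the replicate block, 2 without a variance trend, 24 with total-count scaling, and between 0 and 16 when 1 library was left out. Over all genes, 1 to 1916 were called in the sets without 1 library.

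Of the scaffold genes, no cullin was called, against 7.39% of all genes. Cul3, the scaffold of the BTB receptors, had the highest level per length, 63.0 ± 5.97 CPM per kb of exon in Control (SD, n = 3), followed by Cul1, the F-box scaffold, at 44.9 ± 1.73. The other scaffolds lay between 2.05 CPM per kb for Cul9 and 20.8 CPM per kb for Cul4a. Cul4a measured 7.00, 7.08 and 7.09 log2 CPM in Control and 7.17, 7.44 and 7.34 in Celf1cKO libraries, a log2 fold-change of 0.26 (SE 0.092, adjusted p = 0.109). Its close relative Cul4b measured 4.23, 4.43 and 4.22 against 4.51, 4.83 and 4.69 log2 CPM, a log2 fold-change of 0.38 (SE 0.124, adjusted p = 0.0872). In both Cul4 genes every Celf1cKO library was above every Control library, without an adjusted p under 0.05, and Cul4b was called with total-count scaling at 0.61, which is 0.38 relative to the shift of that scaling and below the cut-off.

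Cul1 measured 7.50, 7.56 and 7.45 log2 CPM in Control and 7.33, 7.28 and 7.24 in Celf1cKO libraries. It was the single cullin with a lower mean in Celf1cKO, and its groups did not overlap. The log2 fold-change was -0.22 (SE 0.0744, adjusted p = 0.0984), and it stood at 0.0068 with total-count scaling and at -0.22 relative to the shift of that scaling. The fold-changes of Cul2 and Cul5, the elongin-linked scaffolds, were 0.08 and 0.21, that of Cul3 was 0.14, and those of the large cullins Cul7 and Cul9 were 0.21 and 0.11, with adjusted p from 0.241 to 0.680. Cul7 varied most among the cullins in Celf1cKO lenses, from 5.98 log2 CPM in library 1 to 6.87 in library 2, across the Control range of 6.09 to 6.59.

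Rbx1, the RING subunit shared by most cullin ligases, had the smallest adjusted p of the 129 genes. The gene (ENSMUSG00000022400) lies on chromosome 15 from 81466296 to 81476369 on the plus strand of GRCm38. It measured 5.47, 5.40 and 5.39 log2 CPM in Control and 6.17, 6.38 and 6.34 in Celf1cKO libraries, on 1566 to 1693 and 3087 to 4036 reads. The Control libraries were tightly grouped and every Celf1cKO library was well above them. Rbx1 was 1.83-fold higher in Celf1cKO lenses, a log2 fold-change of 0.87 (SE 0.0894, adjusted p = 0.00888, and 0.00203 to 0.0607 when 1 library was left out). A pseudogene, Rbx1-ps, matches Rbx1 with 99.1% identity over 327 bases, and how reads shared by the 2 were resolved beyond the use of uniquely mapped reads is not known. Rnf7, the alternative RING subunit that pairs with Cul5, showed a log2 fold-change of -0.02 (adjusted p = 0.916).

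Skp1, the linker for F-box proteins, measured 7.21, 7.18 and 7.08 log2 CPM in Control and 7.54, 7.67 and 7.55 in Celf1cKO libraries. The groups were separate, at a log2 fold-change of 0.43 (SE 0.0786, adjusted p = 0.0188), below the fold cut-off. Ddb1, the linker for Cul4 receptors, measured 8.52, 8.45 and 8.58 against 8.75, 8.85 and 8.85 log2 CPM. Its groups were also separate, at a log2 fold-change of 0.30 (SE 0.0784, adjusted p = 0.0487), and with the replicate block the adjusted p was 0.0612. Ddb1 shares 248 exonic bases with Tkfc on the opposite strand, and reads of such pairs may not have been told apart, since the strand setting of the counting was not given. Skp1 and Ddb1 were among the most abundant members per length, at 64.6 ± 2.81 and 57.1 ± 2.52 CPM per kb in Control, whereas Rbx1 stood at 9.39 ± 0.277 in Control and 17.3 ± 1.30 in Celf1cKO (SD, n = 3). Cand1, the exchange factor, measured 6.71, 6.76 and 6.59 against 6.78, 6.99 and 7.00 log2 CPM, a log2 fold-change of 0.24 (adjusted p = 0.136). Skp2, the F-box protein that recognises the cell cycle inhibitor p27 (Cdkn1b), was low in both groups, with 2.32, 2.44 and 3.22 against 2.39, 2.46 and 2.42 log2 CPM, and the direction of its log2 fold-change of -0.24 (adjusted p = 0.560) turned to 0.04 without Control library 3.

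The promoters of Rbx1, Skp1 and Ddb1 are shown because these RING and linker genes had an adjusted p under 0.05 in the same direction. They run from 250 bases before to 50 bases after the RefSeq transcript start on GRCm38.p6, plus strand, at chr15:81466066-81466365, chr11:52231745-52232044 and chr19:10605347-10605646, with capitals marking the GC box (GGGCGG), the CCAAT box (CCAAT), an ETS core (CCGGAAG), the cyclic AMP response element (TGACGTCA), an NRF1 core (GCGCATGC) and the TATA box (TATAAA), each searched on both strands.
Rbx1: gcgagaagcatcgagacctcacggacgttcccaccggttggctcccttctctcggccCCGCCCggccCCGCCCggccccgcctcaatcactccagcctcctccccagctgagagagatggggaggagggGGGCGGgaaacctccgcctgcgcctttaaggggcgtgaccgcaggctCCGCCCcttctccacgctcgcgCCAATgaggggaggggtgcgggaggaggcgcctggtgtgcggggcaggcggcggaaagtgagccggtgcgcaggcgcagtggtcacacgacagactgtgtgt
Skp1: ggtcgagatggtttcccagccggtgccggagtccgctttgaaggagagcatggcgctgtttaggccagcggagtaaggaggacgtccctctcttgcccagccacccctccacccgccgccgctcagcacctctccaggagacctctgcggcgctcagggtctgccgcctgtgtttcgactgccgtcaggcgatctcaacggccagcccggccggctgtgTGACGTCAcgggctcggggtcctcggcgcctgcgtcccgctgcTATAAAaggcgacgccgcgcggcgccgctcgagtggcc
Ddb1: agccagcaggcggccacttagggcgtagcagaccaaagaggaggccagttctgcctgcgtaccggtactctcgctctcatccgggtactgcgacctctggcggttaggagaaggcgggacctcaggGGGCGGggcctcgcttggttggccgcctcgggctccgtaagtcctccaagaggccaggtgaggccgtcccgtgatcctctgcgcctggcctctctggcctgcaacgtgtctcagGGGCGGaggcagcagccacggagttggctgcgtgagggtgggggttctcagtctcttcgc
The Rbx1 window held 4 GC boxes and 1 CCAAT box, the Ddb1 window 2 GC boxes, and the Skp1 window 1 cyclic AMP response element and 1 TATA box. In the GENCODE annotation Ddb1 begins at 10605327, ahead of its RefSeq window, so that window lies within the annotated gene. Sequences were given for 104 of the 129 genes in 145 windows, of which 65.5% held a GC box against 35.7% of all 32851 RefSeq windows. Those windows were not limited to genes of the deposited table, which had passed an expression limit, so the 2 sets differ in this too. The ETS core was present in 25.5% against 8.86%, the CCAAT box in 26.9% against 37.4%, the TATA box in 4.83% against 13.6%, the cyclic AMP response element in 2.76% against 1.79% and the NRF1 core in 3.45% against 2.71%. These shares describe sequence, not factor binding, and were not tested.

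The COP9 signalosome, which takes Nedd8 off cullins, did not pass the test in any of its 9 listed subunits. An unadjusted p under 0.05 by limma was reached by 0 of them, against 29.9% of all genes. Log2 fold-changes ran from -0.15 for Cops8 to 0.16 for Cops7a, with a median of 0.04. Cops5, the subunit with the catalytic site, measured 7.27, 7.44 and 7.31 log2 CPM in Control and 7.43, 7.63 and 7.43 in Celf1cKO libraries, a log2 fold-change of 0.16 (SE 0.0903, adjusted p = 0.280). Its groups overlapped narrowly. Cops6 was the most abundant subunit per length at 64.6 ± 6.03 CPM per kb in Control (SD, n = 3), and Cops7b, at 1.93 ± 0.296, was the least abundant. The fold-changes of Cops2, Cops3, Cops4, Cops6, Cops7b and Cops9 were -0.15, 0.04, -0.04, 0.15, -0.12 and 0.12, and with total-count scaling Cops2, Cops4, Cops7b and Cops8 stood above 0 but, relative to its shift, at -0.15, -0.04, -0.12 and -0.15. Gps1, the subunit named outside this symbol series, showed a log2 fold-change of 0.13 (adjusted p = 0.381).

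**Figure D3:**
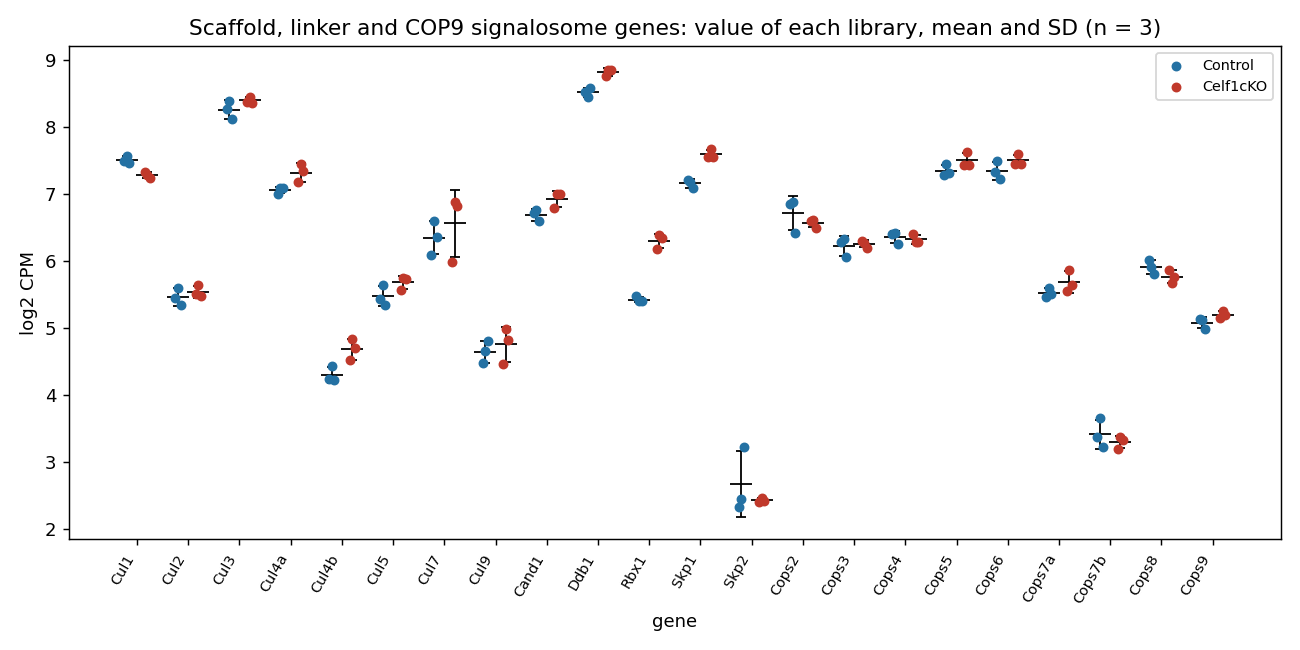
Log2 CPM (vertical axis) of the cullins, Cand1, Ddb1, Rbx1, Skp1, Skp2 and the COP9 signalosome subunits (horizontal axis) in each Control (blue) and Celf1cKO (red) library, with the mean and SD (n = 3). Rbx1, Skp1 and Ddb1 have separate groups with adjusted p of 0.00888, 0.0188 and 0.0487, whereas most cullin and COP9 values overlap.

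Among the 8 Fbxw genes, F-box receptors with WD repeats, 1 was elevated and 1 reduced, against 4.77% and 2.63% of all genes. The family's median log2 fold-change was 0.08. Fbxw9 measured 3.26, 3.31 and 3.50 log2 CPM in Control and 4.17, 4.32 and 3.81 in Celf1cKO libraries. All Celf1cKO libraries were higher, and Fbxw9 was 1.67-fold higher in the mean, a log2 fold-change of 0.74 (SE 0.163, adjusted p = 0.0309). Fbxw4, the gene of the mouse dactylaplasia locus, measured 3.66, 3.76 and 4.13 against 3.12, 3.34 and 3.08 log2 CPM. All Celf1cKO libraries were lower, at a log2 fold-change of -0.67 (SE 0.164, adjusted p = 0.0417, and 0.0511 to 0.159 when 1 library was left out). Fbxw4 shares 561 exonic bases with Gm17018 on the opposite strand and Fbxw9 shares 202 with A230103J11Rik, also on the opposite strand. Fbxw11, the beta-TrCP paralog with the highest level of the family, measured 5.86, 5.82 and 5.82 against 5.96, 5.98 and 6.00 log2 CPM, a log2 fold-change of 0.14 (adjusted p = 0.240). Fbxw7, receptor for cyclin E, Myc and Notch, showed the largest uncalled fold-change of the family, 0.31 (adjusted p = 0.180).

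The 19 Fbxl genes, F-box receptors with leucine-rich repeats, included 15 with an average above 1 log2 CPM and a median log2 fold-change of 0.18. Fbxl17, which takes apart wrongly paired BTB proteins, was the called gene of the family and lies on chromosome 17 from 63057452 to 63500017 on the minus strand. It measured 4.23, 4.20 and 4.06 log2 CPM in Control and 4.78, 5.12 and 5.07 in Celf1cKO libraries, on 657 to 719 and 1176 to 1684 reads. Every Celf1cKO library was above the controls, and Fbxl17 was 1.77-fold higher, a log2 fold-change of 0.82 (SE 0.124, adjusted p = 0.0132, and 0.00356 to 0.0784 when 1 library was left out). Fbxl5, the iron-sensing receptor and the most abundant of the family by log2 CPM, showed a log2 fold-change of 0.12 (adjusted p = 0.495). Fbxl21, a receptor for the circadian repressor cryptochrome, was low at 1.08, 1.68 and 0.96 against 1.53, 2.44 and 1.71 log2 CPM. Its groups overlapped, and the log2 fold-change of 0.66 did not pass the test (adjusted p = 0.212).

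Of the 30 Fbxo genes, which carry other or no known substrate-binding domains, 24 had an average above 1 log2 CPM, and the median log2 fold-change was 0.05. Fbxo38 on chromosome 18 had the highest mean log2 CPM of the family over the 6 libraries, with 5.08, 5.22 and 5.06 in Control and 5.64, 6.15 and 6.07 in Celf1cKO libraries. The groups were separate, with Celf1cKO library 1 nearest to the controls, and Fbxo38 was 1.78-fold higher, a log2 fold-change of 0.84 (SE 0.144, adjusted p = 0.0162). Fbxo3, which targets another F-box protein, Fbxl2, measured 5.13, 5.07 and 4.97 against 5.47, 5.48 and 5.44 log2 CPM. Its Celf1cKO libraries were tightly grouped, with an SD of 0.0196 log2 units (n = 3), and lay above all controls, at a log2 fold-change of 0.41 (SE 0.0866, adjusted p = 0.0278), below the fold cut-off, and it shares 190 exonic bases with 4931422A03Rik on the opposite strand. Fbxo25 was higher by 0.88 on the log2 scale, with 4.32, 4.57 and 4.76 against 4.88, 5.85 and 5.56 log2 CPM. Its adjusted p was 0.0586 without and 0.0218 with the replicate block, and that of Fbxo33 was 0.0633 and 0.0405 at a log2 fold-change of 0.65. Fbxo33 measured 2.71, 2.24 and 2.33 against 3.26, 3.01 and 2.95 log2 CPM, with library 1 the highest of both groups.

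The 32 Klhl genes, BTB and Kelch-repeat receptors of Cul3, spanned the widest range of the families, with log2 fold-changes from -1.46 to 1.22 and a median of 0.21. Klhl13, a receptor that acts with Cul3 on Aurora B in dividing cells, lies on the X chromosome from 23219271 to 23365082 on the minus strand. It measured 1.21, 0.61 and 1.25 log2 CPM in Control and 1.85, 2.21 and 2.19 in Celf1cKO libraries, on 55 to 92 and 153 to 223 reads. Klhl13 was the least abundant of the called genes, and every Celf1cKO library was higher than every control, at a log2 fold-change of 1.06 (SE 0.252, adjusted p = 0.0386). Klhl12, a receptor for the vesicle coat protein Sec31, measured 3.69, 3.62 and 3.68 against 4.02, 4.12 and 4.13 log2 CPM. Its groups were separate, at a log2 fold-change of 0.43 (SE 0.107, adjusted p = 0.0444), below the fold cut-off, and 0.0540 was its adjusted p with the replicate block.

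Klhl32 had the lowest log2 fold-change of the 129 genes over all 6 libraries. It lies on chromosome 4 from 24612554 to 24851124 on the minus strand and measured 3.39, 3.39 and 3.07 log2 CPM in Control and 2.63, 1.46 and 1.37 in Celf1cKO libraries, on 328 to 399 and 125 to 264 reads. Celf1cKO library 1 was well above the other two of its group, yet below every control. The log2 fold-change was -1.46 (SE 0.341, adjusted p = 0.0365), and it ranged from -1.87 to -1.24 when 1 library was left out. Klhl25, a receptor for the translation repressor 4E-BP1, measured 4.01, 4.91 and 4.74 against 3.58, 3.66 and 3.71 log2 CPM. Here the controls were spread, with Control library 1 nearest to the Celf1cKO libraries, and the log2 fold-change was -0.90 (SE 0.227, adjusted p = 0.0453). Klhl14 showed a log2 fold-change of -1.41 but overlapping groups, with 1.32, 1.87 and 1.12 against 1.78, -1.33 and -0.36 log2 CPM, and an adjusted p of 0.237. Without Celf1cKO library 1 it was called at -2.29 (adjusted p = 0.0119), below the -1.87 of Klhl32 in that set. Klhl5, the most abundant of the family by log2 CPM, showed a log2 fold-change of -0.18 (adjusted p = 0.383), which stood at 0.05 with total-count scaling and at -0.18 relative to its shift.

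Klhl24, a receptor for keratin intermediate filaments, measured 5.17, 5.01 and 4.16 log2 CPM in Control and 5.59, 5.67 and 5.53 in Celf1cKO libraries. Control library 3 was the lowest of its group, and the log2 fold-change of 0.82 was 0.51 without it. Every Celf1cKO library was higher than every control, and the adjusted p was 0.0709 without and 0.0390 with the replicate block. Klhl11 was called with the block at a log2 fold-change of 0.60 (adjusted p = 0.0428) although its groups overlapped, with 2.97, 2.43 and 2.18 against 3.63, 2.98 and 2.78 log2 CPM. For each library number the Celf1cKO library was the higher one. Klhl40 and Klhl41, known from skeletal muscle and picked out here after their values were seen, had 2 to 3 and 1 to 5 reads in Control and 6 to 14 and 9 to 13 reads in Celf1cKO libraries. Neither passed the test (adjusted p = 0.130 and 0.174).

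None of the 18 Kctd genes, short BTB proteins of which several bind Cul3, was called, against 7.39% of all genes. With the replicate block 2 were called, against 9.18% of all genes, and the family's median log2 fold-change was -0.04. An unadjusted p under 0.05 was reached by 7, against 29.9% of all genes, of which 4 were higher and 3 lower. Kctd20 measured 5.90, 5.95 and 5.76 log2 CPM in Control and 6.19, 6.33 and 6.28 in Celf1cKO libraries. Its groups were separate, at a log2 fold-change of 0.40 (SE 0.0891, adjusted p = 0.0326), below the fold cut-off, and a non-coding copy, Gm45150, matches it with 95.9% identity over 458 bases. Kctd15, an inhibitor of neural crest formation, measured 4.94, 4.74 and 4.71 against 4.50, 3.81 and 3.83 log2 CPM. It missed the threshold without the block at a log2 fold-change of -0.75 (adjusted p = 0.0518) and passed it with the block (adjusted p = 0.0242). Kctd9 measured 3.44, 4.16 and 3.80 against 4.20, 5.10 and 4.86 log2 CPM, a log2 fold-change of 0.92 with an adjusted p of 0.0664 without and 0.0155 with the block. Its order of libraries was alike in both groups, lowest in library 1 and highest in library 2. Kctd3, the most abundant of the family by log2 CPM, had separate groups and a log2 fold-change of -0.34 (adjusted p = 0.0642).

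**Figure D4:**
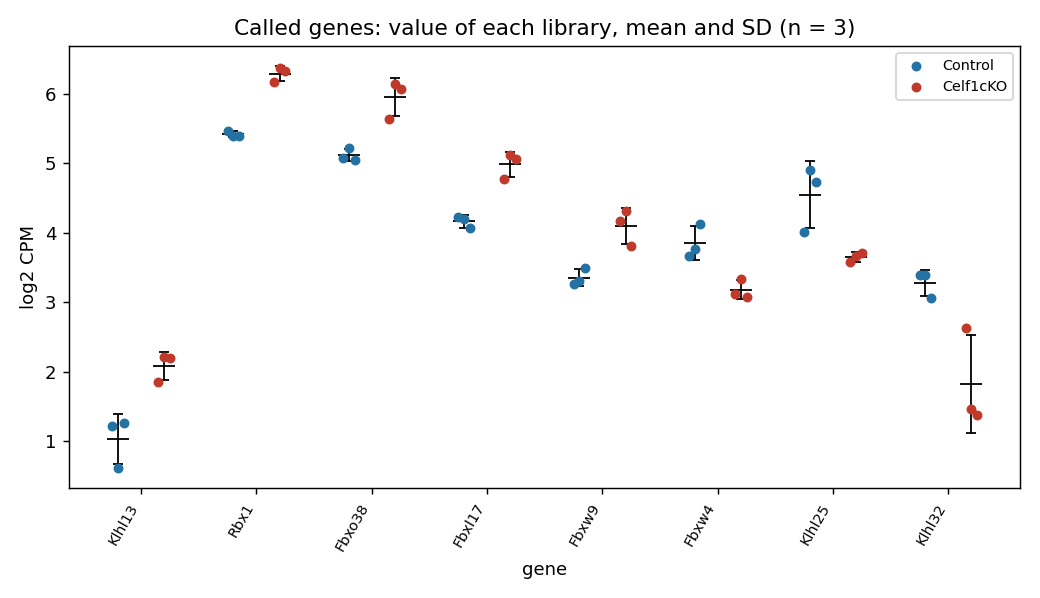
Log2 CPM (vertical axis) of the 8 called genes (horizontal axis) in each Control (blue) and Celf1cKO (red) library, with the mean and SD (n = 3). No gene has overlapping groups, the shortest distances are those of Fbxw9, Fbxw4 and Klhl25, and the widest spread is that of Klhl32 in Celf1cKO, from 1.37 to 2.63.

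Celf1cKO library 1 was the library of its group nearest to the Control mean for 5 of the 8 called genes and for 9 of the 13 genes with an adjusted p under 0.05. The same library was nearest for 880 of the 1030 called genes of the whole table, or 85.44%, and it also retained more Celf1 than the other mutant libraries. Without it, 16 ligase genes and 1916 of all genes were called. The part of residual Celf1 in these differences was not tested.

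GU-rich elements in 3' untranslated regions are known binding sites of Celf1, and the core TGTTTGT (DNA letters, transcript strand, overlaps with itself allowed) was looked up in the 13 genes with an adjusted p under 0.05. Sites are shown with 10 bases on each side, from GENCODE transcripts on GRCm38, and capitals mark the core. A single transcript per gene was searched, the one with the longest coding sequence and then the longest 3' untranslated region. They lie at chr2:104060271-104060297 (plus strand, Fbxo3), chrX:23220203-23220229 (minus strand, Klhl13), chr1:134489773-134489799 (plus strand, Klhl12) and chr7:75873717-75873743 (plus strand, Klhl25).
Fbxo3: aaatgggaatTGTTTGTtttctcttcc
Klhl13: ttacttgtgaTGTTTGTatggcctaga
Klhl12: tatgtatgtaTGTTTGTatggatgtat
Klhl25: gctcatccctTGTTTGTctagtgctct
The first site lies 196, 146, 325 and 1054 bases after the stop codon in Fbxo3, Klhl13, Klhl12 and Klhl25, and Fbxo3 holds 4 such cores. No match was present in the 3' untranslated regions of the searched transcripts of Rbx1, Fbxl17, Fbxo38, Skp1, Fbxw9, Kctd20, Klhl32, Fbxw4 or Ddb1, which says only that these letters are absent there. Any other transcripts of these genes were not searched. In the first 500 bases after the stop codon, 12 of 94 ligase genes with such a window held the core, or 12.8%, against 11.1% of 9042 genes. Among all called genes the share was 20% of 510 elevated and 8.66% of 254 reduced genes, and among called ligase genes 1 of 4 elevated and 0 of 3 reduced.

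Beyond the symbol rule, 117 other genes of the pathway were listed, of which 115 were in the table, and 7 of them were called, 4 elevated and 3 reduced. This was 6.09% against 7.39% of all genes, near the background. Neddylation, the step that activates cullins, had 1 of 12 genes called, against 7.39% of all genes. The 4 genes elevated over all lists were Uba3, Dcaf12, Rhobtb1 and Cdkn1a. Uba3, the catalytic subunit of the Nedd8-activating enzyme, measured 5.79, 5.88 and 5.79 log2 CPM in Control and 6.24, 6.76 and 6.49 in Celf1cKO libraries. The groups were separate, at a log2 fold-change of 0.68 (SE 0.133, adjusted p = 0.0223). Its partner subunit Nae1 reached 0.57, just under the cut-off (adjusted p = 0.0281), and Nedd8 0.23 (adjusted p = 0.120), on the same scale.

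Of 55 other receptors and adaptors, 2 were elevated and 2 reduced, against 4.77% and 2.63% of all genes. Dcaf12, a Ddb1-bound receptor of proteins with certain C-terminal ends, measured 5.26, 5.30 and 5.21 against 6.04, 6.83 and 6.61 log2 CPM. Its controls were tightly grouped and all Celf1cKO libraries were higher, at a log2 fold-change of 1.24 (SE 0.189, adjusted p = 0.0134). Rhobtb1, a Cul3-binding BTB protein, was also elevated, at a log2 fold-change of 1.12 (SE 0.209, adjusted p = 0.0194). The SOCS-box receptors Socs3, a brake on cytokine signaling, and Spsb1 were reduced, with log2 fold-changes of -1.01 and -0.90 (adjusted p = 0.0162 and 0.0316). None of 21 cullin regulators and partner ubiquitin enzymes was called by limma, against 7.39% of all genes, or with the block, against 9.18%. Below the fold cut-off, limma gave an adjusted p under 0.05 for Cacul1 (0.57, adjusted p = 0.0299) and Commd8 (0.42, 0.0498) of these. Among the receptors, it did so for Kbtbd2 (0.55, 0.0447), Dcaf13 (0.55, 0.0443) and Dcaf5 (0.51, 0.0356).

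Known substrates of these ligases had 2 of 27 genes called, against 7.39% of all genes, and a median log2 fold-change of -0.15. Cdkn1a (p21), an inhibitor of cyclin-dependent kinases, measured -0.36, -0.65 and -0.72 log2 CPM in Control and 3.80, 6.04 and 4.70 in Celf1cKO libraries. It had the largest difference of all the genes listed here, a log2 fold-change of 5.42 (SE 0.511, adjusted p = 0.00888). Gli2, a transcription factor of Hedgehog signaling, measured 4.06, 4.24 and 3.86 against 3.09, 2.96 and 3.20 log2 CPM, a log2 fold-change of -0.97 (SE 0.146, adjusted p = 0.0131). Cdkn1b (p27), a substrate of the Skp2 ligase, measured 5.20, 5.22 and 4.87 against 5.16, 4.80 and 4.71 log2 CPM. Its groups overlapped, at a log2 fold-change of -0.20 (adjusted p = 0.408), which stood at 0.02 with total-count scaling and at -0.21 relative to its shift. These are transcript levels, and protein levels, cullin neddylation and ligase activity were not measured.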

How the data were processed

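Strand-specific paired-end RNA-seq libraries of whole P0 lenses (3 Control, 3 Celf1cKO) had been trimmed, aligned to GRCm38.p6 with STAR 2.7.8a and counted per gene with featureCounts 2.0.0. Uniquely mapped reads and genes above a low CPM limit were kept by the authors, who deposited 1 table of edgeR-normalized log2 CPM per library. The strand setting of the counting is not given in the sources used here. The authors' columns of fold-changes and p-values in the deposited table were not used. Groups were taken from the sample labels, which do not tie libraries to litters, so p-values measure the spread between these pooled samples.

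Low values were whole multiples of 1 read (100.0% within 0.05 read below 2000 reads), which gave 40694454 to 44387151 reads per library. The value of 3 reads was 0.0609 to 0.0807 CPM, and the lowest log2 CPM in the table was -4.41. Among the fits, these reads served the limma voom and total-count alternatives only. They also gave the printed read ranges, the CPM per kb and the marker sums. Limits from counts cover counting error only. The log2 CPM of all 13931 genes were fitted with limma 3.58.1 (variance trend, R 4.3.3) and p-values adjusted by Benjamini-Hochberg over all of them. A gene was called at adjusted p under 0.05, absolute log2 fold-change above 0.58 and average above 1 log2 CPM. The procedure was tested on simulated data. Positions and exonic lengths came from GENCODE annotation of GRCm38, promoters from RefSeq, and near-identical copies were searched with blastn 2.17.0. Python 3.11.15 with matplotlib 3.10.9 was used for plots.

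Same-numbered libraries deviated together from their group means (correlations 0.30, 0.42 and 0.35), so the replicate number was treated as pairing and fitted as a block in an alternative. Correlations between differently numbered libraries were not computed, and the pairing rests on the tested values rather than on labels. The genes, pathway lists and tests were chosen with earlier results of these data known. Values are given for every cullin, Rbx1, Skp1, Skp2, Ddb1, Cand1 and Cops gene, every called gene, the most abundant and the most changed uncalled expressed gene of each receptor family, and, of the other lists, every called gene with Cdkn1b, Rnf7, Nedd8 and Gps1. Genes at adjusted p under 0.05 below the fold cut-off, among them Nae1, were added after their values were seen. So were the ligase genes gained with the block and the muscle genes Klhl40 and Klhl41. A single list of cell type markers is not reported here.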

Additional observations from a re-analysis of the deposited data

How the results depend on the processing

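Of the 8 ligase genes called as reported, all were kept with the replicate block (14 called), robust empirical Bayes, log2(CPM + 1), centring on the median and testing expressed genes alone, and 7 with voom on recovered reads, where Klhl25 was lost. Without a variance trend 2 were called (Rbx1 and Fbxl17), with total-count scaling 24 (Fbxw4 and Klhl25 lost) and without the fold cut-off 13, and leaving out 1 library gave 0 to 16. Over all genes, 1 to 1916 were called in the sets without 1 library. The 7 called genes of the 115 in the other pathway lists became 4 without the trend, 23 with total-count scaling, 13 without the fold cut-off, 9 with the replicate block and 0 to 17 with 1 library left out, the 0 falling on the sets without Control library 2 or Celf1cKO library 3. Without these libraries 1 gene of the whole table was called, and the cause was not tested. Of all 13931 genes, 421 (3.02%) were called without the trend and 1867 (13.4%) with total-count scaling. The corresponding counts were 1550 without the fold cut-off and 1279 (9.18%) with the replicate block. Celf1 kept its log2 fold-change of -1.60 with the block (adjusted p = 0.0178), missed the threshold without the trend (-1.60, adjusted p = 0.0693) and ranged from -1.99 to -1.36 with 1 library left out, with adjusted p from 0.0025 to 0.108. Sets without 1 library hold fewer samples.

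For 49 named genes, 686 values under other settings were computed, of which 590 kept direction and side of the threshold, 72 lost the call, 9 gained it and 15 turned direction, 8 of them with total-count scaling and 7 with 1 library left out. The 72 lost calls fell on 15 genes, which are all the called genes among the 49. The other named genes had no call to lose, and their unchanged values are part of the 590. Total-count scaling, which adds a common shift, took Cops2 to 0.0776, Cops4 to 0.191, Cops7b to 0.107, Cops8 to 0.0773, Cul1 to 0.0068, Klhl5 to 0.0477, Cdkn1b to 0.0215 and Rnf7 to 0.206, and all 8 kept their direction relative to that shift. Leaving out 1 library also turned some directions: Cops3 ran from -0.0491 to 0.0894, Cul9 from -0.0056 to 0.256, Skp2 from -0.410 to 0.0403 and Rnf7 from -0.0976 to 0.0339. None of these genes was called, and the cause was not tested. The blocked fit changed no call of a gene called without it. Genes near 3 reads per library, such as Klhl40 and Klhl41, are too shallow for small differences to be detectable.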
